A study of Mus musculus with 12 samples.

Results

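The genes described here are the eukaryotic translation initiation factors (eIF) and elongation factors (eEF), taken as every row whose symbol begins with Eif or Eef followed by a digit. They number 68 of the 24781 genes in the table, and 65 of them had a molecule in at least 1 library. RNA was measured in mouse invariant natural killer T (iNKT) cells, which are T lymphocytes with a receptor for lipids shown on CD1d, from animals aged 6 weeks. All 12 libraries came from sorted pools of 100 cells that carried TCRbeta, NK1.1 and CXCR6 and bound the CD1d tetramer. Thymus CD244+, thymus CD244-, lung CD244+ and lung CD244- cells gave 3 libraries each, and the CD244+ cells are called C2 and the CD244- cells C1. No strain, sex, genotype or treatment beyond the sort is given, and the replicates are described as separate preparations of libraries without naming animals. P-values here rest on how much these libraries vary, and that variation could be technical alone.

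Translation begins when initiation factors load the small ribosomal subunit and the initiator tRNA onto a capped mRNA and search for the start codon. In that process eIF4 proteins bind the cap and unwind the leader, eIF3 holds the small subunit, eIF2 carries the initiator tRNA, and eIF1, eIF1A and eIF5 control the choice of the start codon. Elongation then needs eEF1A, which delivers each aminoacyl-tRNA, the eEF1B subunits, which recharge eEF1A with GTP, and eEF2, which moves the ribosome along. The mRNAs of the elongation factors, of several eIF3 subunits and of the ribosomal proteins are known as TOP mRNAs, whose translation is under the control of mTORC1. Levels here count molecules tagged once at the poly(A) end, so they were not divided by length, and they are given per 10000 molecules of a library.

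RefSeq promoter windows on GRCm38.p6 were found for 53 of the 68 genes. They run from 70 bases before the annotated start to 30 bases after it. The windows of 3 elongation factor genes that were lower in lung CD244+ cells are shown with that of Eif1, an abundant gene with no such call, to let their core elements be compared. Each is written 5′ to 3′ on the strand of the gene, and capitals mark every match, on either strand, to 4 short motifs: TATAA (the TATA box core), GGGCGG (the GC box), TGACG (part of the cyclic AMP response element) and CCGGAAG (a core bound by ETS factors).
Eef1a1, chr9:78481695-78481794, minus strand: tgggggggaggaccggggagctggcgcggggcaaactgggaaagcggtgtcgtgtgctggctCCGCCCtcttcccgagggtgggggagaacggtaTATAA
Eef2, chr10:81176561-81176660, plus strand: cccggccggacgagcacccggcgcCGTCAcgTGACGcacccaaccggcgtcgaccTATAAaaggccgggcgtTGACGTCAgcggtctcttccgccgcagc
Eef1b2, chr1:63176761-63176860, plus strand: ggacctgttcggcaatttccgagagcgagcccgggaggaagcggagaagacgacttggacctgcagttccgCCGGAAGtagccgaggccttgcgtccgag
Eif1, chr11:100319879-100319978, plus strand: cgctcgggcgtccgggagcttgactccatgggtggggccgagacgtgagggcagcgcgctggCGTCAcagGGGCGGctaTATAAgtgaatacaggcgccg

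Eef1a1, Eef2 and Eif1 hold a TATAA in this window and Eef1b2 does not, so a match in the window did not set the lower genes apart from Eif1. The match lies before the annotated start in Eef2 and after it in Eef1a1 and Eif1. Whether any of them acts as a TATA box was not tested. Over the 68 windows of the 53 genes, TATAA was found in 4 windows (5.88%), beside 9.75% of all 32851 windows of the same length. GGGCGG was found in 32 (47.1% beside 23.8%), TGACG in 18 (26.5% beside 10.7%) and CCGGAAG in 17 (25% beside 5.47%). The windows of one gene can overlap, TGACG and its reverse can share bases, and a match is a description of letters only.

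Depth ran from 29696 molecules in a lung CD244- library to 71789 in a thymus CD244+ library, so that 1 molecule stood for 0.139 to 0.337 per 10000. The lung CD244+ libraries stood apart from the other 9. Their 14 macrophage and monocyte markers summed to 74.9, 132 and 133 per 10000, against 0.748 to 2.32 elsewhere. Apoe, Lyz2 and C1qa had no molecule in any library outside that group. The 4 class II antigen presentation genes summed to 48.9, 69.97 and 126 in lung CD244+ and to 0.621 at most elsewhere. The 12 T and iNKT cell markers found in the table, of 15 listed, summed to 32.0, 18.3 and 19.2 in lung CD244+ and to 43.6 to 51.7 in the other groups, although the sort was for T cells. Cxcr6, a gate of the sort, had 15, 1 and 1 molecules in the lung CD244+ libraries. The 16 immediate early genes, which respond within minutes to stimulation and handling, summed to 64.7 to 81.0 in lung CD244+, 37.5 to 42.2 in lung CD244- and 9.46 to 11.7 in thymus. B cell markers reached 1.18 in 1 lung CD244+ library and were 0 elsewhere, neutrophil markers were 0 throughout, and erythroid markers stayed under 0.12. Epithelial markers summed to 1.02 to 3.70 in the 6 lung libraries. NK cell markers summed to 3.24 to 3.78 in thymus CD244+ and 1.12 to 1.41 in thymus CD244- cells. In lung they summed to 1.75 to 3.12 in CD244+ and 0.621 to 0.995 in CD244- cells. The part of these other transcripts in the values below was not tested, and each call between lung CD244+ and another group is given with its value when library 1, the one with the lowest macrophage marker sum, stands alone in lung CD244+. The spread then comes from the other 3 groups, and the lone library is assumed to vary as they do. In bulk samples fewer cells of a type and less RNA per cell cannot be told apart.

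The 68 genes together took up about the same part of the molecules in both thymus subsets and less in lung CD244+ cells. Their summed level was 213 ± 1.78 per 10000 in thymus CD244+, 215 ± 4.98 in thymus CD244-, 164 ± 8.12 in lung CD244+ and 199 ± 0.882 in lung CD244- cells (SD, n = 3 each). By library, lung CD244+ stood at 173, 163 and 157, below all 9 libraries of the other groups, whose lowest value was 198. The 85 ribosomal protein genes, which encode the machine these factors serve, summed to 2724 ± 81.6, 2764 ± 106, 1539 ± 143 and 1824 ± 25.3 in the same order. The lung libraries were thus lower in both sums, and the ribosomal protein sum differed more between tissues.

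Set against ribosomal protein molecules, the order of the tissues was the opposite. There were 7.83 ± 0.216 factor molecules per 100 ribosomal protein molecules in thymus CD244+ and 7.79 ± 0.347 in thymus CD244-, against 10.7 ± 0.758 in lung CD244+ and 10.9 ± 0.103 in lung CD244- cells. The 6 lung libraries lay between 10.2 and 11.6 and the 6 thymus libraries between 7.39 and 8.03, without overlap. Without Eef1a1, Eef1b2, Eef1d, Eef1g and Eef2, the other genes gave 3.00 ± 0.126, 2.93 ± 0.289, 5.25 ± 0.729 and 4.49 ± 0.153. Per 100 molecules of the T and iNKT markers, the 68 genes gave 448 ± 15.2, 448 ± 33.2, 748 ± 184 and 428 ± 6.92, and the 3 lung CD244+ libraries gave 540, 889 and 816. Scaled to ribosomal protein genes, the tested factors had median log2 differences of lung against thymus of 0.46 in CD244+ and 0.35 in CD244- cells. All tested genes had 0.53 and 0.35, so the higher ratio in lung is not particular to the factors. Scaled to T and iNKT markers, the medians in CD244+ cells were 0.71 for the factors and 0.73 for all tested genes. These ratios were chosen after the values were seen and carry no test.

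**Figure D1:**
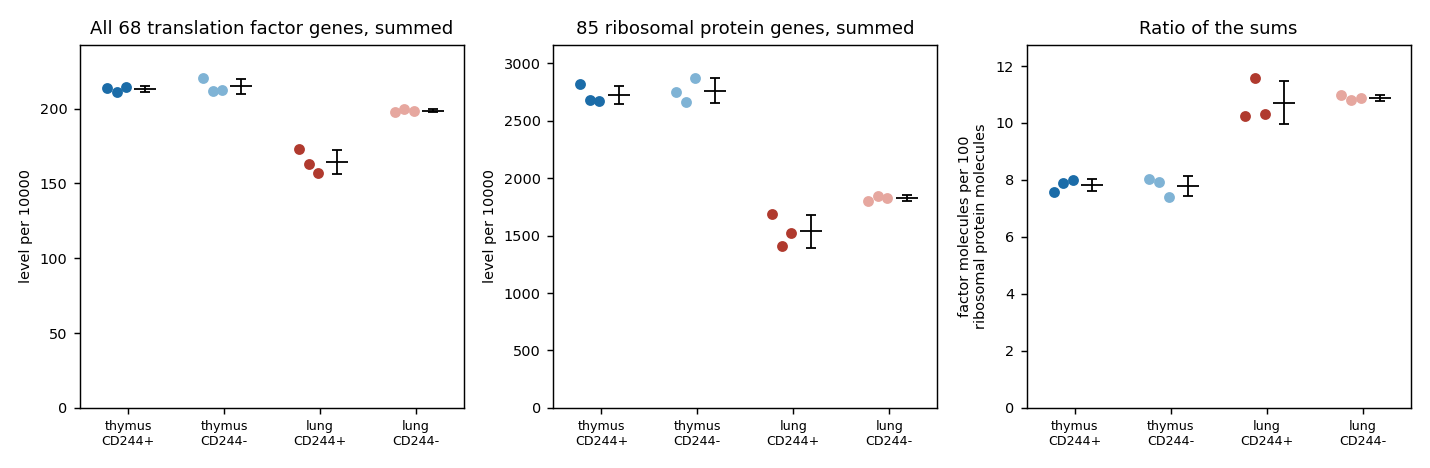
Summed level per 10000 molecules of the 68 translation factor genes (left) and of 85 ribosomal protein genes (middle), and factor molecules per 100 ribosomal protein molecules (right); points are libraries, and the bar with whiskers is the mean ± SD of 3. The lung CD244+ libraries have the lowest sums, from 157 to 173 for the factors, while the ratio is 10.2 to 11.6 in lung and 7.39 to 8.03 in thymus. Scaled to ribosomal protein genes, all tested genes also had medians above 0 for lung against thymus, 0.53 in CD244+ and 0.35 in CD244- cells.

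The levels of the genes were very unequal. Eef1a1 alone made up 38.8% of the factor molecules in thymus CD244+, 41.8% in thymus CD244-, 34.4% in lung CD244+ and 38.9% in lung CD244- cells. Eef1a1, Eef1b2, Eef1d, Eef1g and Eef2 together made up 61.6%, 62.5%, 51.2% and 58.8%. Ranked by the mean level over the 12 libraries, the 10 most abundant were Eef1a1, Eef2, Eef1b2, Eif1, Eef1g, Eif3f, Eif5a, Eif4g2, Eif3e and Eif3h. A mean of at least 0.5 per 10000 over the 12 libraries was needed for a test, and 41 of the 68 genes reached it. Of these 41, 33 reached it in each of the 4 groups. The other 8 passed through some groups only: Eif1a was below it in thymus CD244+, Eif1ax, Eif3j1, Eif3j2 and Eif6 in lung CD244-, Eif3g in lung CD244+, and Eif1b and Eif2s1 in both lung groups.

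**Figure D2:**
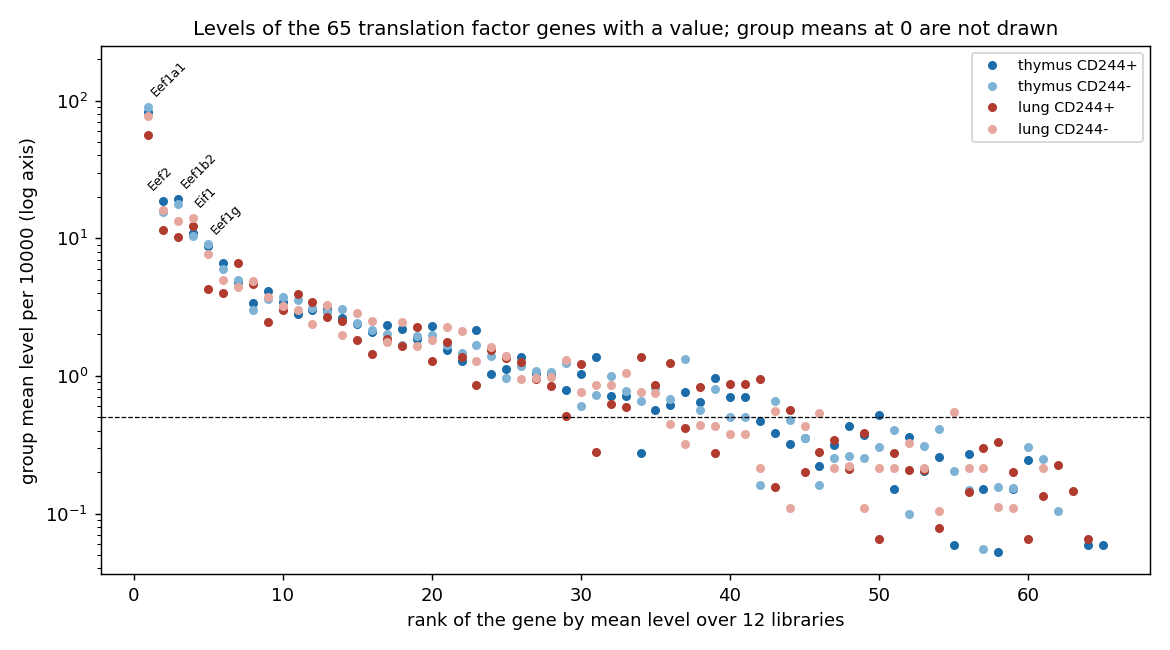
Group mean level per 10000 molecules (log axis) of the 65 genes with a molecule, ranked by their mean over 12 libraries; colours are the 4 groups and the dashed line is the minimum of 0.5 for a test. Eef1a1 stands far above the rest, with lung CD244+ lowest at 56.7, and most genes beyond rank 41 lie under the line.

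In thymus, no translation factor gene passed the test between CD244+ and CD244- cells. With limma and Benjamini-Hochberg adjustment over 3154 tested genes, 0 of 41 were higher, beside 0.412% of all tested genes, and 0 were lower, beside 0.0951%. At an unadjusted p under 0.05 the count was also 0, beside 4.41%, and edgeR called 0 of 24, beside 1.13% of its genes. The log2 differences lay between -0.61 (Eif1a) and 0.60 (Eif3g), with a median of -0.02 for the factors and for all tested genes.

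In lung, 2 genes of the elongation machinery were lower in CD244+ than in CD244- cells, Eef1a1 and Eef1g. That is 2 of 41 lower, beside 5.2% of all tested genes, and 0 higher, beside 7.36%, so the share lower is near the background. The median log2 difference was -0.18 for the factors and -0.04 for all tested genes. Both calls hold for levels per 10000 molecules and not for every scaling: with libraries scaled to T and iNKT markers, Eef1a1 stood at 0.59 and Eef1g at 0.15, against 0.70 for the median of all tested genes. With lung CD244+ library 1 alone, Eef1g stood at -0.90 (adjusted p = 0.0398) and Eef1a1 at -0.24 (adjusted p = 0.253). In edgeR, run on 9 libraries, Eef1a1 had -0.31 (adjusted p = 0.0539) and Eef1g -0.52 (adjusted p = 0.208).

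Between tissues, the CD244+ cells differed in 7 of the 41 genes, and 4 of those 7 encode elongation factors. In lung CD244+ against thymus CD244+ cells, Eef1a1, Eef1b2, Eef1g, Eef2, Eif3f and Eif3g were lower and Eif1a was higher. The 6 lower of 41 stand beside 6.31% of all tested genes, and the 1 higher beside 8.37%. Eif3g was below the minimum for a test in lung CD244+ cells and Eif1a in thymus CD244+ cells. Both were tested through higher levels in other groups. The median log2 difference was -0.13 for the factors and -0.01 for all tested genes. The lower calls do not hold for every scaling. Scaled to T and iNKT markers, 0 were lower and 13 higher, beside 14 and 1162 of all 3154 tested genes, whose median was 0.73. Scaled to ribosomal protein genes, 0 were lower and 9 higher, beside 34 and 809, with that median at 0.53. This comparison and that of CD244 in lung share the 3 lung CD244+ libraries. With lung CD244+ library 1 alone, Eef1a1 stood at -0.35, Eef1b2 at -0.74 and Eef1g at -1.09, past the threshold, while Eef2 (-0.33), Eif3f (-0.49), Eif3g (-0.97) and Eif1a (0.80) did not pass. Without lung CD244+ library 2 the same 3 genes were called lower, at -0.58, -0.71 and -0.85.

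In CD244- cells 1 gene differed between the tissues, Eif2s1, which encodes the alpha subunit of eIF2. It was lower in lung, 1 of 41 beside 4.72% of all tested genes, and 0 were higher, beside 5.01%. Eif2s1 was below the minimum of 0.5 in both lung groups, so it was tested only through its higher thymus levels. The median log2 difference was -0.10 for the factors and -0.01 for all tested genes. Eef1a1 and Eef1b2 stood at -0.22 and -0.39 in this comparison and did not pass (adjusted p = 0.158 and 0.124), while in edgeR, on 9 libraries, both were called lower at -0.31 and -0.47, 2 of 24 beside 9.97% of its genes. Scaled to ribosomal protein genes, 4 genes were higher in lung, beside 444 of all 3154 tested genes, whose median was 0.35. They were Eef1a1 (0.37), Eef2 (0.60), Eif1 (0.99) and Eif4g2 (1.14).

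A difference of the CD244 effect between lung and thymus was called for 0 of 41 genes in either direction, beside 3.61% of all tested genes with a positive and 0.983% with a negative difference. At an unadjusted p under 0.05 there were 6 of 41, beside 15% of all tested genes, Eef2 (-0.75), Eef1g (-0.79), Eif3g (-1.34), Eef1a1 (-0.33), Eif1a (1.19) and Eef1b2 (-0.49), and in edgeR 0 of 24 were called, beside 1.73% of its genes. The smallest adjusted p was 0.11, for Eef2. The lower Eef1a1 and Eef1g in lung are therefore not shown to differ from their differences in thymus. Groups did not overlap for 3 of 41 genes in the thymus CD244 comparison and 7 in the lung one, 7.32% and 17.1% beside 12.2% and 24.0% of all tested genes. For lung against thymus the counts were 11 in CD244+ and 4 in CD244- cells, 26.8% and 9.76% beside 30.1% and 24.7%.

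**Figure D3:**
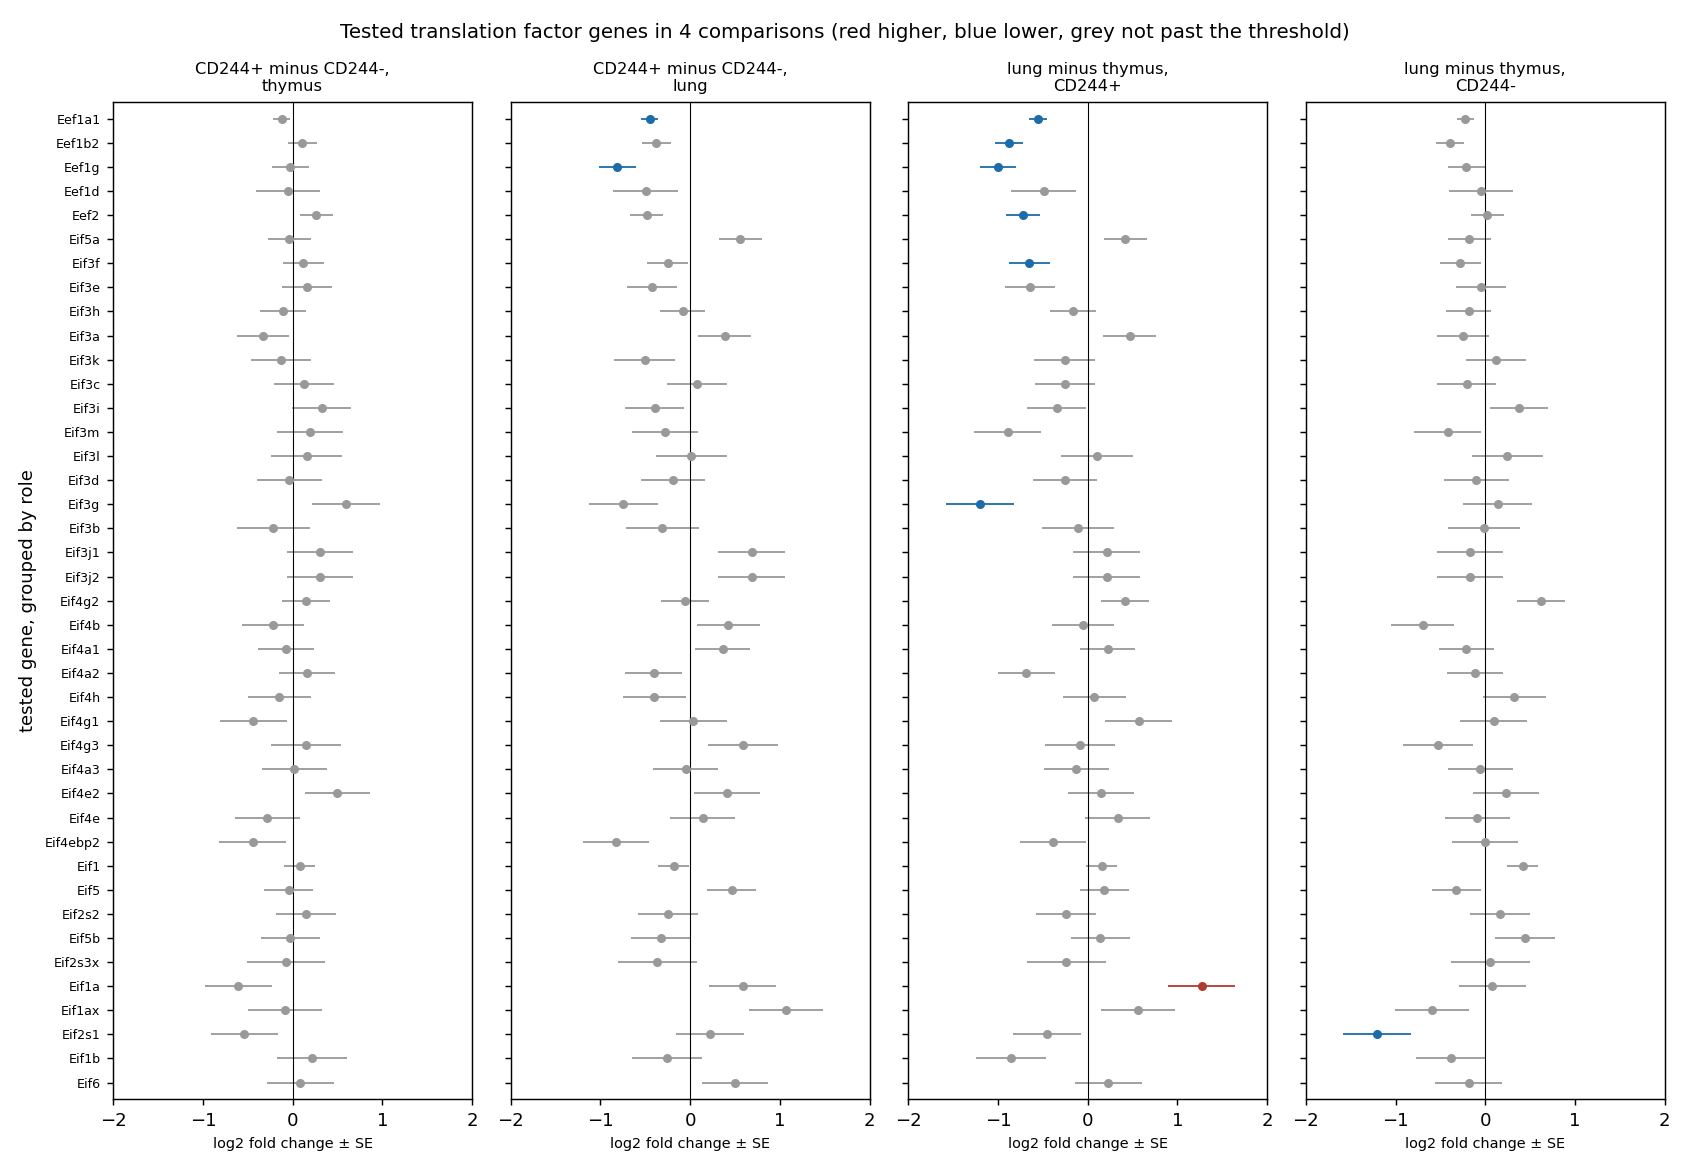
Log2 fold change ± SE of the 41 tested genes in 4 comparisons, for levels per 10000 molecules, grouped by role (elongation at the top, then eIF3, eIF4, and the start codon and ternary complex factors); blue is lower and red higher at an adjusted p under 0.05 (limma). No gene is coloured in thymus, and the blue points for lung against thymus in CD244+ cells lie mainly in the elongation rows. Those elongation genes are among the most abundant factors, and some grey points with larger SE lie as low. Scaled to T and iNKT markers or to ribosomal protein genes, none of the blue points passes as lower, with the median of all tested genes at 0.73 and 0.53.

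Eef1a1 (chr9:78478449-78489151, GENCODE on GRCm38) encodes eEF1A, the carrier of aminoacyl-tRNA, and was the most abundant factor in every library. Its level was 81.7, 83.6 and 82.7 per 10000 in thymus CD244+ and 93.1, 84.1 and 92.7 in thymus CD244- cells. It was 64.96, 58.7 and 46.4 in lung CD244+ and 81.5, 71.7 and 78.2 in lung CD244- cells. All 3 lung CD244+ libraries were below the other 9. On the log2(level + 0.5) scale, lung CD244+ was lower than lung CD244- by -0.45 ± 0.10 (SE, 1.37-fold, adjusted p = 0.000573) and than thymus CD244+ by -0.55 ± 0.10 (1.47-fold, adjusted p = 1.54e-05, limma). Scaled to ribosomal protein genes the second difference was 0.27, and scaled to the T and iNKT markers 0.52. The 3 lung CD244+ libraries differed from each other by more than counting allows, with a chi-square per degree of freedom of 7.89. Values that were not whole molecules were seen in 11 of the 12 libraries for this gene, so part of its molecules may be shared with other rows. Eef1a2, the form of muscle and neurons, had 0 molecules in 621158, which allows up to 0.0483 per 10000 (3 molecules, counting error only).

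Eef1b2 and Eef1g encode eEF1B subunits, of which the first exchanges the nucleotide on eEF1A and the second is structural. Eef1b2 (chr1:63176825-63180486) stood at 17.1, 19.5 and 20.8 in thymus CD244+, 19.4, 17.5 and 16.3 in thymus CD244-, 11.3, 7.996 and 11.7 in lung CD244+ and 13.1, 13.3 and 13.7 in lung CD244- cells. The 6 lung libraries were all below the 6 thymus libraries. In CD244+ cells lung was lower by -0.88 ± 0.16 (1.84-fold, adjusted p = 3.6e-05, limma), while scaled to T and iNKT markers it stood at 0.17. In lung, CD244+ against CD244- gave -0.38 ± 0.16 and did not pass (adjusted p = 0.124), although these groups did not overlap.

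Eef1g (chr19:8967041-8978479) stood at 9.47, 8.99 and 8.13 in thymus CD244+, 9.04, 8.37 and 9.65 in thymus CD244-, 3.89, 3.29 and 5.64 in lung CD244+ and 8.42, 7.96 and 6.83 in lung CD244- cells. Lung CD244+ was below every other library, and lung CD244- overlapped the thymus groups. Lung CD244+ was lower than lung CD244- by -0.81 ± 0.21 (1.76-fold, adjusted p = 0.00442) and than thymus CD244+ by -0.999 ± 0.205 (1.999-fold, adjusted p = 0.000221, limma), and scaled to T and iNKT markers these were 0.15 and 0.0020. Per 100 Eef1a1 molecules, Eef1g was 5.99, 5.61 and 12.1 in lung CD244+ and 8.74 to 11.6 in the other 9 libraries, so that 2 lung CD244+ libraries fell outside that range on the low side and 1 on the high side. Eef1d, the other exchange subunit, stood at 1.84, 1.88 and 0.583 in lung CD244+ and 1.01 to 4.98 elsewhere and passed in no comparison. Eef1e1, a scaffold of the tRNA synthetase complex, had 15 molecules in all and was not tested.

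Eef2 (chr10:81176631-81182498) encodes the translocase. Its level was 19.4, 19.4 and 17.1 in thymus CD244+, 15.2, 14.5 and 16.7 in thymus CD244-, 14.7, 7.11 and 12.9 in lung CD244+ and 13.8, 20.9 and 13.4 in lung CD244- cells. Within each lung group 1 library stood away from the other 2, low in CD244+ library 2 and high in CD244- library 2, and the chi-square per degree of freedom was 6.00 and 3.42. Lung CD244+ was lower than thymus CD244+ by -0.72 ± 0.19 (1.65-fold, adjusted p = 0.00356, limma), while without lung CD244+ library 2 the value was -0.42 and did not pass. Scaled to ribosomal protein genes that difference was 0.076 and scaled to T and iNKT markers 0.32. Lung CD244+ against CD244- gave -0.48 ± 0.19 (adjusted p = 0.0812). Eef2k, the kinase that inactivates eEF2, had 5 molecules in all.

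Eif5a, the hypusine-bearing factor that frees stalled ribosomes, did not follow the other elongation genes. It stood at 4.88, 4.26 and 5.30 in thymus CD244+, 5.63, 3.89 and 5.49 in thymus CD244-, 5.32, 7.06 and 7.58 in lung CD244+ and 3.03, 5.97 and 4.35 in lung CD244- cells. The lung CD244+ libraries were above those of thymus CD244+ by a narrow margin and overlapped lung CD244-. The difference was 0.42 ± 0.24 against thymus CD244+ (adjusted p = 0.290) and 0.56 ± 0.24 against lung CD244- (adjusted p = 0.126), neither past the threshold. Without lung CD244- library 2 the latter was 0.78 and passed. Scaled to ribosomal protein genes it was 0.81 and passed, beside 0.14 for the median of all tested genes. Eif5a2, its paralog, had 2 molecules, both in lung CD244+.

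**Figure D4:**
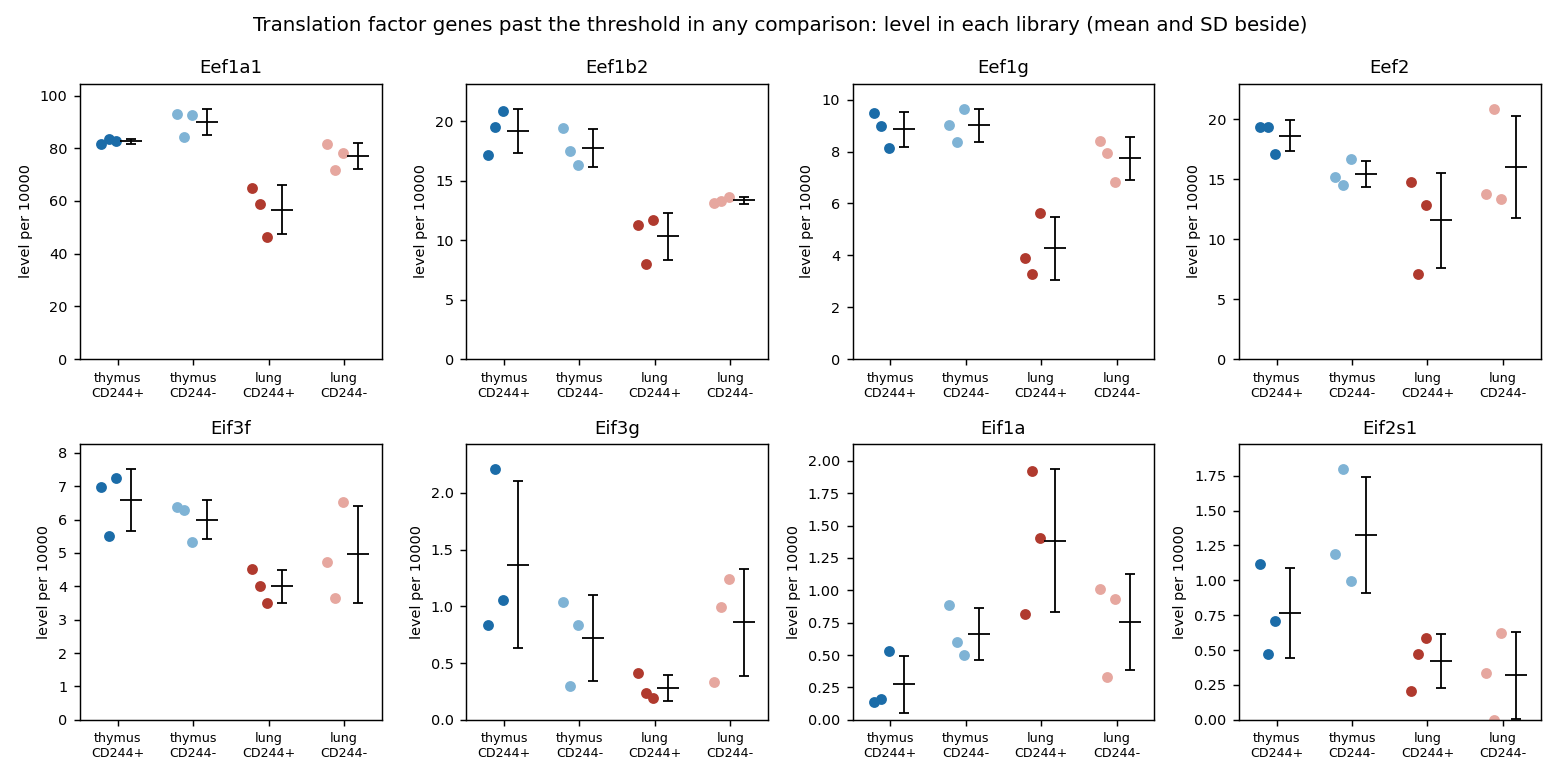
Level per 10000 molecules of the 8 translation factor genes past the threshold in any comparison; points are libraries, and the bar with whiskers is the mean ± SD of 3. Eef1a1, Eef1b2 and Eef1g are lowest in lung CD244+, where Eef1a1 runs from 46.4 to 64.96, and Eif1a is highest there; scaled to T and iNKT markers, Eef1a1 (0.52), Eef1b2 (0.17), Eef1g (0.0020), Eef2 (0.32) and Eif3f (0.34) are not lower in lung CD244+ than in thymus CD244+, where the median of all tested genes is 0.73.

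All 14 eIF3 genes were tested, and 2 were called, Eif3f and Eif3g, both lower in lung CD244+ than in thymus CD244+ cells at 10000 molecules a library, where 6.31% of all tested genes were lower. Over the 14, the median log2 difference in that comparison was -0.26, with 10 below 0, beside 1604 of all 3154 tested genes, and in the other comparisons no eIF3 gene passed. Eif3f (chr7:108934417-108942951), a subunit of the core of the complex, stood at 6.96, 5.52 and 7.24 in thymus CD244+, 6.37, 6.28 and 5.32 in thymus CD244-, 4.50, 3.998 and 3.499 in lung CD244+ and 4.71, 3.65 and 6.52 in lung CD244- cells. The CD244+ groups of the 2 tissues did not overlap. The difference was -0.65 ± 0.23 (adjusted p = 0.0482, limma), with 0.34 when scaled to T and iNKT markers and 0.10 when scaled to ribosomal protein genes. The call was lost in 15 of 29 other settings, and the sign changed in 2 more, the scalings just given.

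Eif3g (chr9:20894349-20898623), which binds eIF4B and helps scanning, stood at 0.836, 2.21 and 1.06 in thymus CD244+, 1.04, 0.299 and 0.832 in thymus CD244-, 0.409, 0.235 and 0.194 in lung CD244+ and 0.337, 0.995 and 1.24 in lung CD244- cells. The 4 molecules in the 3 lung CD244+ libraries compare with 26 in thymus CD244+. The difference was -1.20 ± 0.38 (adjusted p = 0.0236, limma), and without thymus CD244+ library 2 it was -0.90 and did not pass. Scaled to T and iNKT markers it was -0.71 and also did not pass.

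Eif3e and Eif3h, subunits that lie next to each other in the complex, were the next most abundant of the group. Eif3e stood at 3.62, 4.89 and 3.89 in thymus CD244+, 3.41, 3.44 and 3.99 in thymus CD244-, 2.66, 2.35 and 2.33 in lung CD244+ and 5.39, 3.98 and 1.86 in lung CD244- cells. Lung CD244+ was below both thymus groups and within the spread of lung CD244-, and against thymus CD244+ the difference of -0.64 ± 0.28 did not pass (adjusted p = 0.126). Eif3h stood at 3.90, 3.31 and 3.18, then 4.001, 3.59 and 3.66, then 3.07, 3.29 and 2.72, and then 3.03, 2.99 and 3.73 in the same order, and its groups overlapped in every comparison. The rows Eif3j1 and Eif3j2, near-identical copies of 1 subunit, held the same values in all 12 libraries (0.166 to 0.941), with molecules split between them, and are uncertain as single genes.

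The eIF4 group had 10 of its 12 genes tested, and 0 passed in any comparison. Its summed level was 16.9 ± 1.33 in thymus CD244+, 16.8 ± 0.228 in thymus CD244-, 18.3 ± 2.69 in lung CD244+ and 17.7 ± 2.70 in lung CD244- cells, ranges that overlapped. Eif4g2, a scaffold relative that lacks the site for the cap-binding protein, was the most abundant. It stood at 4.32, 3.15 and 2.65 in thymus CD244+, 2.07, 4.04 and 2.99 in thymus CD244-, 5.53, 4.47 and 3.89 in lung CD244+ and 6.06, 5.31 and 3.42 in lung CD244- cells. Lung libraries tended to the upper end but overlapped thymus, with 0.62 ± 0.27 in CD244- cells (adjusted p = 0.148) and 0.42 ± 0.27 in CD244+ cells (adjusted p = 0.370). Eif4e, the cap-binding protein, had 46 molecules in all and Eif4g1, the main scaffold, 84.

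Eif4a1 and Eif4a2 encode the paired RNA helicases of this group. Eif4a1 stood at 1.39, 1.89 and 2.30 in thymus CD244+, 2.07, 1.94 and 1.83 in thymus CD244-, 1.64, 2.82 and 2.33 in lung CD244+ and 1.68, 1.99 and 1.24 in lung CD244- cells. Eif4a2 stood at 1.95, 2.68 and 2.30, then 2.22, 1.94 and 1.83, then 0.819, 1.65 and 1.36, and then 1.35, 1.99 and 2.17 in the same order. Eif4a1 made up 44.3% of the pair in thymus CD244+ (35 of 79 molecules, 33.1 to 55.9), 49.4% in thymus CD244- (37.8 to 61.0), 64.0% in lung CD244+ (32 of 50, 49.2 to 77.1) and 46.9% in lung CD244- cells (29.1 to 65.3), with exact 95% binomial intervals that cover counting error only. The share was highest in lung CD244+ cells, and the difference between groups was not tested.

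**Figure D5:**
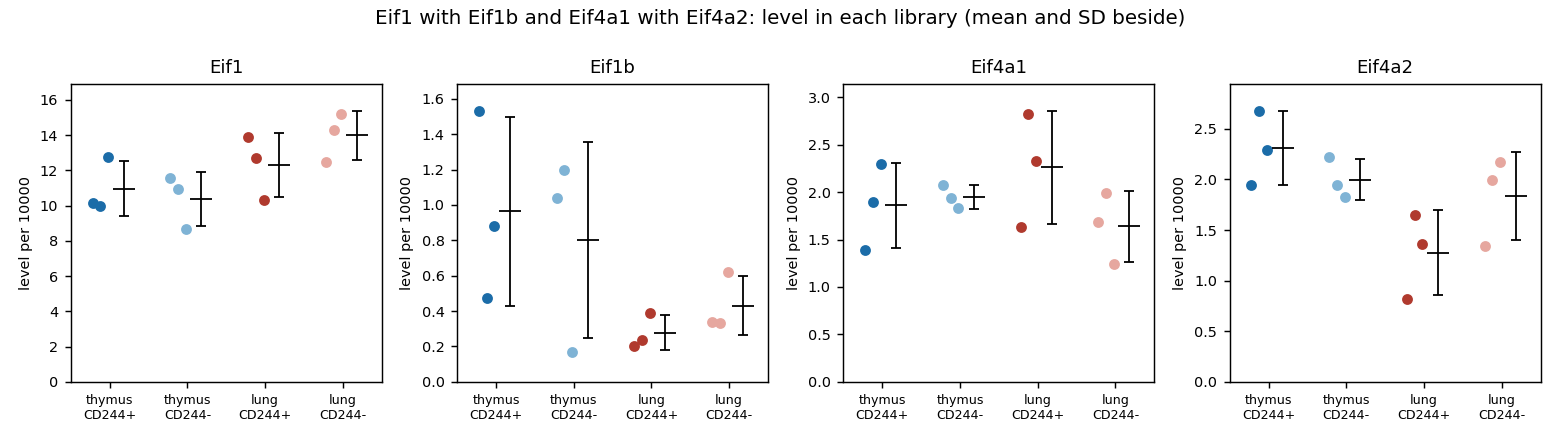
Level per 10000 molecules of Eif1 and Eif1b and of Eif4a1 and Eif4a2; points are libraries, and the bar with whiskers is the mean ± SD of 3. Eif1b runs from 0.205 to 0.389 in lung CD244+ and from 0.473 to 1.53 in thymus CD244+, while Eif1 is no lower in lung; no difference of these 4 genes passed the threshold.

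Of the 4 inhibitors that bind eIF4E, only Eif4ebp2 was tested, and it passed in no comparison. It stood at 0.557, 1.103 and 0.707 in thymus CD244+, 1.33, 1.20 and 1.16 in thymus CD244-, 0.409, 0.941 and 0.194 in lung CD244+ and 2.02, 0.663 and 1.24 in lung CD244- cells. In lung the CD244 difference was -0.83 ± 0.37 (adjusted p = 0.144), and the groups overlapped. This gene was named after its values were seen. Eif4ebp1 had 10 molecules, Eif4ebp3 18 and Eif4enif1 24 in all libraries.

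Among the start codon and ternary complex factors 9 of 13 were tested. Their summed level was 23.0 ± 1.73 in thymus CD244+, 23.8 ± 2.85 in thymus CD244-, 25.5 ± 0.564 in lung CD244+ and 26.5 ± 0.504 in lung CD244- cells. Eif1 (chr11:100319885-100322096), the gatekeeper of start codon choice, stood at 10.2, 9.97 and 12.8 in thymus CD244+, 11.6, 10.9 and 8.65 in thymus CD244-, 13.9, 12.7 and 10.3 in lung CD244+ and 12.5, 14.3 and 15.2 in lung CD244- cells. In CD244- cells lung was above thymus in all libraries, by 0.42 ± 0.17, which did not pass (adjusted p = 0.135). Scaled to ribosomal protein genes, Eif1 was higher in lung by 0.99 in CD244- and 0.95 in CD244+ cells, and both passed. The medians of all tested genes were then 0.35 and 0.53.

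Eif1b, the paralog of Eif1, stood at 1.53, 0.473 and 0.883 in thymus CD244+, 1.04, 1.20 and 0.166 in thymus CD244-, 0.205, 0.235 and 0.389 in lung CD244+ and 0.337, 0.332 and 0.621 in lung CD244- cells. It made up 8.37% of the pair in thymus CD244+ (19 of 227 molecules, exact 95% interval 5.11 to 12.8), 7.31% in thymus CD244- (4.23 to 11.6), 2.23% in lung CD244+ (4 of 179, 0.612 to 5.62) and 3.01% in lung CD244- cells (0.825 to 7.52). The thymus and lung shares lie apart, but their intervals overlap. In CD244+ cells the level of Eif1b in lung against thymus was -0.86 ± 0.39 and did not pass (adjusted p = 0.151).

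Eif1a and Eif1ax encode eIF1A, which keeps the scanning complex open. Eif1a stood at 0.139, 0.158 and 0.530 in thymus CD244+, 0.889, 0.598 and 0.499 in thymus CD244-, 0.819, 1.92 and 1.40 in lung CD244+ and 1.01, 0.332 and 0.932 in lung CD244- cells. It was higher in lung CD244+ than in thymus CD244+ by 1.27 ± 0.37 (2.41-fold, adjusted p = 0.0125, limma), resting on 5 molecules in thymus CD244+ and about 19 in lung CD244+. Without thymus CD244+ library 1 or 2, or lung CD244+ library 2, it did not pass (1.15, 1.17 and 1.07). With lung CD244+ library 1 alone the value was 0.80 and did not pass.

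Eif1ax stood at 0.836, 0.473 and 0.530 in thymus CD244+, 0.593, 0.598 and 0.832 in thymus CD244-, 0.614, 2.12 and 0.972 in lung CD244+ and 1.35, 0 and 0 in lung CD244- cells. All 4 molecules in lung CD244- were in 1 library. The lung CD244 difference of 1.07 ± 0.41 did not pass (adjusted p = 0.0818), and without lung CD244- library 1 it was 1.70 and passed. Eif1a made up 29.4% of the Eif1a and Eif1ax molecules in thymus CD244+ (5 of 17, exact 95% interval 10.3 to 56.0), 50.0% in thymus CD244- (29.9 to 70.1), 52.8% in lung CD244+ (35.5 to 69.6) and 63.6% in lung CD244- cells (30.8 to 89.1), intervals that overlap.

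The eIF2 subunits carry the initiator tRNA. Eif2s1 (chr12:78861819-78887010), the subunit whose phosphorylation lowers translation, stood at 1.11, 0.473 and 0.707 in thymus CD244+, 1.19, 1.79 and 0.998 in thymus CD244-, 0.205, 0.470 and 0.583 in lung CD244+ and 0.337, 0 and 0.621 in lung CD244- cells. In CD244- cells lung was lower than thymus by -1.21 ± 0.38 (2.31-fold, adjusted p = 0.0301, limma), from 26 molecules in thymus to 3 in lung. The direction was the same in all 26 other settings that gave a value, but the call was lost in 8 of them, among them without any 1 of the thymus CD244- libraries or without lung CD244- library 2. Eif2s2, the beta subunit, passed in no comparison.

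Eif2s3x and Eif2s3y encode the gamma subunit from the X and the Y chromosome. Eif2s3x stood at 1.11, 0.315 and 0.707 in thymus CD244+, 0.296, 1.05 and 0.998 in thymus CD244-, 0.819, 0 and 0.972 in lung CD244+ and 0.337, 0.332 and 2.48 in lung CD244- cells, with no call. Eif2s3y was not tested. Its molecules numbered 1, 2 and 4 in thymus CD244+, 6, 4 and 3 in thymus CD244-, 0, 2 and 0 in lung CD244+ and 2, 3 and 0 in lung CD244- cells. The Y-linked gene was thus seen in every group, though the labels give no sex. Xist, expressed from the inactive X of females, had 7, 8 and 15, then 18, 12 and 9, then 19, 3 and 29, and then 0, 0 and 0 molecules in the same order. Lung CD244+ and lung CD244- libraries therefore differed in Xist as well as in CD244, and the 2 cannot be told apart in this design. Lung CD244- and thymus CD244- libraries likewise differed in Xist as well as in tissue. The same limit holds for that comparison and for the difference of CD244 effects.

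The regulators of eIF2 were below the minimum for a test. The 5 subunits of eIF2B, which recharges eIF2, summed to 1.25, 0.788 and 0.883 in thymus CD244+, and their mean was 1.16 ± 0.440 in thymus CD244-, 1.08 ± 0.642 in lung CD244+ and 1.30 ± 0.555 in lung CD244- cells. The 4 eIF2 alpha kinases, which act in stress, summed to 1.24 ± 0.608, 0.724 ± 0.118, 0.621 ± 0.154 and 0.976 ± 0.662. Of the kinases, Eif2ak2 (the sensor of double-stranded RNA) had 19 molecules, Eif2ak1 18, Eif2ak3 16 and Eif2ak4 (the sensor of uncharged tRNA) 2. The methyltransferases of eEF1A and eEF2 summed to 0.724 at most in a group mean. Of the 27 genes without a test, 24 had a value and 3 had none, Eef1a2, Eif4e1b and Eef1akmt4-ece2. Eif6, which keeps the large subunit from joining too early, was tested and passed in no comparison.

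Other genes of translation were described from 6 lists. Among 15 genes of poly(A) binding, reinitiation, recycling and termination, 10 were tested. Pabpc1, the poly(A)-binding protein, was lower in lung CD244+ than in lung CD244- cells (-0.77 ± 0.11, adjusted p = 7.39e-07) and than in thymus CD244+ cells (-0.40 ± 0.11, adjusted p = 0.00801, limma). It was higher in lung than in thymus among CD244- cells (0.41 ± 0.11, adjusted p = 0.0112, limma). The columns as deposited sum to 26890.5 in thymus and 19342.9 in lung. There the median of all tested genes in CD244- cells was -0.32 and Pabpc1 stood at -0.06. Its CD244 effect differed between lung and thymus (-0.81 ± 0.16, adjusted p = 0.000351). Scaled to T and iNKT markers these differences of Pabpc1 in lung CD244+ were 0.27 and 0.67, and that between the CD244 effects 0.21. With lung CD244+ library 1 alone, Pabpc1 stood at -0.47 against lung CD244- (adjusted p = 0.0387) and at -0.098 against thymus CD244+ (adjusted p = 0.80). Ybx1, an mRNA-packaging protein, was higher in lung CD244+ than in lung CD244- (0.61, adjusted p = 0.0498) and thymus CD244+ cells (0.96, adjusted p = 0.000576), and with lung CD244+ library 1 alone the values were 0.46 and 0.81 and did not pass. The call of Ybx1 against lung CD244- was lost in 20 of 29 other settings. The CD244 effect on Ybx1 also differed between lung and thymus (1.0995 ± 0.30, adjusted p = 0.0181, limma).

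Of 19 genes of mTORC1 and MNK control, 9 were tested. Lower in lung CD244+ were Rps6, the ribosomal protein that S6 kinase phosphorylates (-0.64 against lung CD244- and -0.91 against thymus CD244+), and Pdcd4, an inhibitor of eIF4A (-1.09 and -1.11). Mknk2, a kinase of eIF4E, was higher than in thymus CD244+ (0.86), a call lost in 12 of 29 other settings. Against thymus CD244+, 2 of these 9 were lower and 1 higher, beside 6.31% and 8.37% of all tested genes. Of 22 aminoacyl-tRNA synthetases 9 were tested, and Vars was lower in lung CD244+ (-1.14 and -1.15) and Hars higher in lung among CD244- cells (1.38). Of 6 genes of nascent chain handling and hypusine 3 were tested, and Tpt1 was lower in lung CD244+ (-0.28 and -0.37) and in lung among CD244- cells (-0.29), but higher in lung CD244+ scaled to T and iNKT markers (0.76 and 0.71) and higher in lung among CD244- cells scaled to ribosomal protein genes (0.30). Of 12 genes of the integrated stress response 5 were tested, with 1 call, Ppp1r15a, which restores eIF2, higher in lung among CD244- cells (1.64). Scaled to T and iNKT markers, Rps6 stood at 0.38 and 0.15, while Pdcd4 and Vars kept their direction in the other settings that gave a value. With lung CD244+ library 1 alone, Rps6 stood at -0.29 against lung CD244- and -0.55 against thymus CD244+, Tpt1 at -0.33 and -0.42, Pdcd4 at -0.81 and -0.83, Vars at -1.12 and -1.14, and Mknk2 at 0.96 against thymus CD244+. Of these, Rps6 and Tpt1 against thymus CD244+ passed the threshold. None of the 10 mitochondrial translation factors reached the minimum.

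The cytosolic ribosomal protein genes, the closest group for comparison, had 81 of 85 tested. In lung CD244+ against thymus CD244+ 70 were lower and 0 higher, with a median log2 difference of -0.73, beside -0.13 for the 41 factors. In CD244- cells 46 were lower and 0 higher (median -0.47, beside -0.10). For CD244 in lung 29 were lower and 4 higher (median -0.30, beside -0.18), and in thymus 0 passed. Scaled to T and iNKT markers there were 20 higher and 0 lower against thymus CD244+ (median 0.33) and 72 higher and 0 lower against lung CD244- (median 0.71), beside medians of 0.73 and 0.70 for all tested genes, while 24 were lower in lung among CD244- cells. In edgeR 57 and 60 were lower between tissues in CD244+ and CD244- cells, and 4 were higher and 2 lower for CD244 in lung. With lung CD244+ library 1 alone, 47 were lower against thymus CD244+, and 2 were higher and 2 lower against lung CD244-. The difference between the 2 groups of genes was not itself tested, and the 2 tissue comparisons are made in separate sets of libraries.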

How the data were processed

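RNA was measured in 12 libraries of 100 sorted iNKT cells. Per the labels' protocols, RNA was fragmented by heat, a molecular barcode sat in the oligo-dT primer, a second common sequence was added by template switching, and PCR followed. Per the submitters' processing notes reads were aligned with STAR to mm10. How molecules were counted, which annotation was used and how columns were scaled are not given in the sources used here. The deposited table holds a signal that the authors made, the number of molecules times a constant of each library. Its columns sum to 26890.5 in thymus and 19342.9 in lung, and 94.3% to 95.9% of the nonzero values were whole molecules.

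From these values each column was rescaled to a total of 10000. Genes with a mean of at least 0.5 over the 12 libraries (3154, of which 41 of the 68) were tested on log2(level + 0.5) with limma 3.58.1 (R 4.3.3, trend and robust options, 4 groups). Tests were two-sided, with Benjamini-Hochberg adjustment over all tested genes and a threshold of 0.05. Fold changes on this scale understate those of low genes. With 3 libraries a group, the smallest exact p is 0.1. edgeR 4.0.16 (quasi-likelihood, TMM) was run as an alternative on 9 libraries, in which whole molecules could be checked, with 1154 genes. At least 1 group thus had fewer than 3 libraries there, so edgeR and limma differ in libraries and genes as well as in method. It called 13, 180, 297, 218 and 20 genes in the CD244 comparisons of thymus and lung, lung against thymus in CD244+ and CD244- cells, and the difference of CD244 effects. Both tests were tried on simulated data with 2-fold and 4-fold changes, and no call had a wrong sign. The changed genes there all lay above the minimum for a test, with the same spread for every gene and no transcripts of other cells. That trial therefore does not cover genes as low as Eif3g, Eif1a and Eif2s1 or the mixed lung CD244+ libraries. Positions are from GENCODE on GRCm38, in which 67 of the 68 symbols matched 1 gene, and promoters from RefSeq on GRCm38.p6. Unmapped columns numbered 0.

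Values in every library are given for genes past the threshold in any of 5 comparisons, the 10 most abundant, and pairs of paralogs with a molecule. Of the pathway lists, genes past the threshold are named, except for an item that is not reported here. The genes and lists were chosen with earlier results of these data known. Counting intervals are exact 95% binomial intervals over the summed molecules of a group.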

Additional observations from a re-analysis of the deposited data

Results flagged for a closer look

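The CD244 effect (CD244+ minus CD244-) differed between lung and thymus by the limma interaction test for none of the translation factor genes and for 7 other genes with values in the text. Among genes of translation these were Pabpc1 (-0.81 on the log2 scale, adjusted p = 0.000351), Rps6 (-0.73, adjusted p = 0.0158) and Ybx1 (1.0995, adjusted p = 0.0181). Scaled to T and iNKT markers the differences of Pabpc1 and Rps6 were 0.21 and 0.28 and did not pass, and in edgeR those of Rps6 (-0.32) and Ybx1 (0.9955) did not pass. Among the macrophage genes they were Apoe (5.48, adjusted p = 1.08e-10), C1qa (4.12, adjusted p = 9.7e-08) and Lyz2 (3.43, adjusted p = 4.15e-06). These macrophage genes had molecules in lung CD244+ libraries alone and reached the minimum for a test only through them. Their fitted differences depend on the added 0.5 and are no bound. Xist was the other (2.95, adjusted p = 0.000319), with 0 molecules in each lung CD244- library. Groups of 3 libraries were too small for a test of single outlying libraries.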

How the results depend on the processing

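Of the 29 other settings, 27 were planned, and scaling to ribosomal protein genes and lung CD244+ library 1 alone were chosen after seeing the data. Counts are given as factor genes higher and lower. A total of other genes means the total of all genes except the factor genes and the ribosomal protein genes. For CD244 in thymus the counts were 0 and 0 in each setting run. For CD244 in lung (0 and 2) they were 19 and 0 scaled to T and iNKT markers, 2 and 1 scaled to ribosomal protein genes, 0 lower in edgeR, 1 lower with library 1 alone, and 0 to 1 higher and 2 to 3 lower with each library left out. For lung against thymus in CD244+ cells (1 and 6) they were 13 and 0 scaled to T and iNKT markers, 9 and 0 scaled to ribosomal protein genes, 10 lower as deposited, 0 higher at a minimum of 2, 0 and 3 in edgeR and with library 1 alone, and 0 to 1 and 3 to 6 with each library left out. For CD244- cells (0 and 1) 6 were lower as deposited, 3 with a total of other genes, 2 in edgeR, 0 scaled to T and iNKT markers, thinned, unfiltered or at a minimum of 2, 4 higher and 0 lower scaled to ribosomal protein genes, and 0 to 3 lower with each library left out. For the difference of CD244 effects (0 and 0) 6 were higher scaled to T and iNKT markers, and 0 to 1 higher and 0 to 2 lower with each library left out. Scaled to T and iNKT markers, the 19, 13 and 6 higher factor genes stood beside 1168, 1162 and 493 of all 3154 tested genes. Scaled to ribosomal protein genes, the 2, 9 and 4 higher stood beside 336, 809 and 444. As deposited, where lung columns have the lower total, the 10 and 6 lower stood beside 466 and 416. With a total of other genes, the 3 lower stood beside 236. In edgeR the 3 and 2 lower between tissues stood beside 117 and 115 of 1154. The cause of these shifts was not tested. In edgeR and at a minimum of 2, fewer genes were tested.

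Scaled to T and iNKT markers, which put the median of all tested genes at 0.70 for CD244 in lung and 0.73 between tissues in CD244+ cells, signs reversed for Eef1a1 (0.59 in lung, 0.52 between tissues), Eef1g (0.15 and 0.0020), Eef1b2 (0.17), Eef2 (0.32) and Eif3f (0.34), with 0.27, 0.076 and 0.10 for Eef1a1, Eef2 and Eif3f scaled to ribosomal protein genes. Of the other translation genes, those that reversed scaled to T and iNKT markers were Pabpc1 (0.27 in lung, 0.67 between tissues in CD244+ cells, 0.21 for the difference of CD244 effects), Rps6 (0.38, 0.15 and 0.28) and Tpt1 (0.76 and 0.71). Scaled to ribosomal protein genes, Pabpc1 (0.42) and Tpt1 (0.45) reversed between tissues in CD244+ cells and Tpt1 (0.30) in CD244- cells, and Pabpc1 stood at 0.087 in CD244+ cells with quantile normalization and at -0.064 in CD244- cells as deposited. Of these values under scaling to markers or ribosomal protein genes, all but that of Tpt1 in lung (0.76) lay below the median of all tested genes. Scaled to a total of other genes, the summed level was 302, 306, 198 and 249 in thymus CD244+, thymus CD244-, lung CD244+ and lung CD244- cells. As deposited, 189 of all tested genes were higher and 466 lower in lung CD244+ against thymus CD244+, beside 264 and 199, with a median of -0.32. In lung CD244- cells, 3 molecules in a library stood for 0.932 to 1.01 per 10000, so low genes are least certain there. Same-numbered libraries did not deviate together (correlations of -0.04 to 0.04). Counting error in low genes also brings such correlations near 0, so this check cannot decide whether the numbers pair libraries. A replicate block left 1 higher and 5 lower in CD244+ cells between tissues, with Eif3f lost at an adjusted p of 0.0561, and changed no other count of factor genes. Under the block Ybx1 for CD244 in lung also lost its call, at an adjusted p of 0.0509.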
